A study of Mus musculus with 24 samples.

Results

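A set of 10 genes that governs the G1 phase was followed in the epithelium of the mouse otocyst, the closed vesicle from which the inner ear forms. They are the 3 D cyclins (Ccnd1, Ccnd2, Ccnd3), their kinases Cdk4 and Cdk6, the Cip/Kip inhibitors Cdkn1a (p21), Cdkn1b (p27) and Cdkn1c (p57), and the INK4 inhibitors Cdkn2c (p18) and Cdkn2d (p19). They were chosen by name, and all 10 were found among the 15736 genes of the count table. All 10 also passed the filter on low counts in every comparison. Control embryos, labelled con, were Rosa26rtTA/+ and so carried the doxycycline-dependent activator alone, from a locus that is active in most cell types. Experimental embryos, labelled R2b, were Rosa26rtTA/+;Tg(tetO-s(dn)Fgfr2b)/+ and could make a secreted dominant-negative FGFR2b, which traps the ligands of that receptor. Both genotypes got the drug through the mother, as 1.5 mg/kg by injection and then chow with 200 mg/kg. The exposures are named by their start and length: E9.75+12h, E9.25+24h and, latest, E10.25+24h. Tissue was thus taken at E10.25 after the first and second exposure and at E11.25 after the third. Otocysts of a litter were pooled by genotype, which gave a con and an R2b library for 3, 4 and 4 litters, 22 libraries in all.

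D cyclins are made when growth factor signals reach a cell, and they bind Cdk4 or Cdk6. The active complexes phosphorylate the retinoblastoma family of pocket proteins, which frees E2F factors to switch on genes for S phase. INK4 proteins bind Cdk4 and Cdk6 directly, while Cip/Kip proteins act mainly on cyclin E and cyclin A complexes of Cdk2. FGF signalling through the MAP kinase cascade is a well-known inducer of Ccnd1, and Cdkn1a is a textbook target of p53.

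Library totals were 18.7 to 28.2 M counts, and the mitochondrial share was 1.53% to 6.69%. All 12 markers of otic epithelium were found in the libraries, with a summed level of 2493 to 7957 CPM per library (counts scaled to a common library size with trimmed mean of M-values factors). Summed markers of other tissues were 79.5 to 1335 CPM for mesenchyme, 9.74 to 4853 CPM for blood, 16.0 to 312 CPM for endothelium and 8.67 to 50.6 CPM for hindbrain. The transgene encodes a receptor ectodomain fused to an antibody Fc region, so its reads can fall on Fgfr2 and on Ighg1, a heavy chain gene. At E9.75+12h the 3 con pools held 19 to 36 Ighg1 counts and the R2b pools 19414 to 76096. At E9.25+24h the con pools held 1 to 5 and the R2b pools 26082 to 42515. At E10.25+24h the pools labelled con held 15754, 28, 5106 and 16 Ighg1 counts in the order of litters 1 to 4, and those labelled R2b held 1504, 25248, 23658 and 19155. Litter 1 of that exposure thus went against its labels, and the library labelled con of litter 3 held many transgene reads as well. Tests that use E10.25+24h are given with and without these litters, and its groups are written below as labelled con and labelled R2b.

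To compare levels between genes, CPM was divided by the length of the merged exons of each gene in kb. Orders and shares per kb depend on these lengths, and which transcripts of a gene were present was not tested. In CPM alone Ccnd1 (1212 ± 81.6) lay above Cdk4 (1090 ± 65.6) in con of E9.25+24h (SD, n = 4), within their spread. In the con libraries of E9.25+24h, Cdk4 was the most abundant at 335 ± 20.2 CPM per kb (SD, n = 4). Ccnd1 followed at 257 ± 17.3 CPM per kb (SD, n = 4), then Cdkn1c at 169 ± 6.78 CPM per kb and Ccnd2 at 58.2 ± 11.4 CPM per kb (SD, n = 4). These 4 levels were each apart by more than their SDs. Cdkn1a, at 17.5 ± 2.5 CPM per kb, and Cdkn1b, at 16.2 ± 0.925 CPM per kb, did not differ beyond their spread. The same held for Ccnd3, at 11.8 ± 1.93 CPM per kb, and Cdkn2d, at 10.1 ± 1.28 CPM per kb. Cdk6, at 0.657 ± 0.0579 CPM per kb, and Cdkn2c, at 0.524 ± 0.247 CPM per kb, were lowest and also overlapped.

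In con at E9.75+12h Cdk4 was again highest, at 305 ± 8.61 CPM per kb (SD, n = 3). Cdkn1c, at 262 ± 12.8 CPM per kb, and Ccnd1, at 259 ± 3.19 CPM per kb, did not differ beyond their spread there. They were followed by Ccnd2 (49.7 ± 3.32 CPM per kb), Cdkn1b (27.01 ± 1.18), Cdkn1a (22.3 ± 2.56), Ccnd3 (8.79 ± 1.53) and Cdkn2d (6.94 ± 0.285), and Cdk6 (0.633 ± 0.0103) and Cdkn2c (0.318 ± 0.103) closed the order. In the libraries labelled con of E10.25+24h the order was Cdk4 (290 ± 24.2 CPM per kb, SD, n = 4), Ccnd1 (177 ± 49.5), Cdkn1c (141 ± 7.82), Ccnd2 (46.2 ± 9.18), Cdkn1a (20.9 ± 8.70), Cdkn1b (19.7 ± 0.172), Ccnd3 (16.2 ± 1.41), Cdkn2d (10.1 ± 1.36), Cdkn2c (0.584 ± 0.0691) and Cdk6 (0.521 ± 0.105). Cdkn2c and Cdk6 lay within their spread. The place of Cdkn1a depended on litter 1, whose library labelled con had 33.9 CPM per kb of Cdkn1a. In that library Ccnd1, at 109 CPM per kb, lay below Cdkn1c, at 141 CPM per kb. In litters 2, 3 and 4 Ccnd1 was at 217, 172 and 209.5 CPM per kb and lay above Cdkn1c, at 152, 133 and 137 CPM per kb. In these litters Cdkn1a, at 15.7, 16.4 and 17.6 CPM per kb, lay below Cdkn1b, at 19.7, 19.8 and 19.9 CPM per kb. Cdk4 made up 99.8% of the summed Cdk4 and Cdk6 level per kb in con of each exposure. Ccnd1 made up 81.6% ± 1.18 of the D cyclins per kb in the con pools of E9.75+12h, and 78.6% ± 4.32 in those of E9.25+24h. Cdkn1c was the main Cip/Kip inhibitor, with 84.1% ± 0.984 and 83.3% ± 1.51 of that family per kb. The sample titles carry a different leading number in each exposure, so exposure and that number cannot be told apart in a comparison of levels between exposures.

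**Figure D1:**
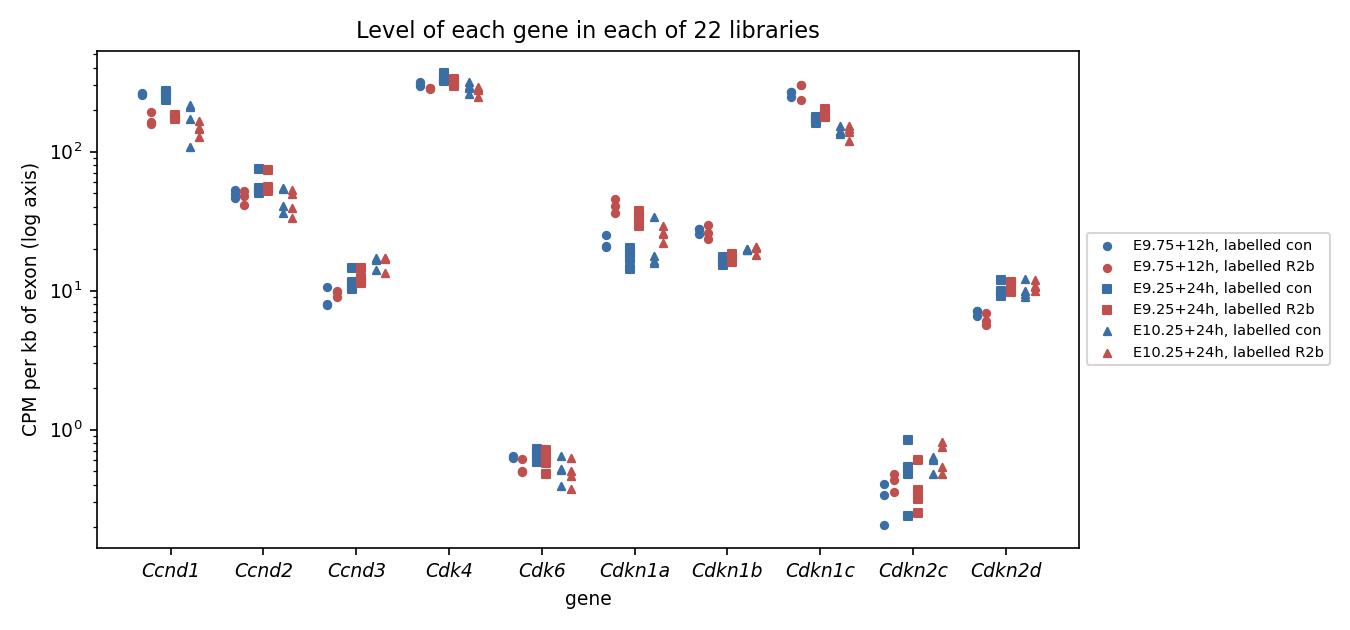
Level of each gene in each of the 22 libraries, in CPM per kb of exon on a log axis, by exposure (marker shape) and label (blue con, red R2b), each point 1 library. Cdk4, Ccnd1 and Cdkn1c lie above 100 CPM per kb in every library, while Cdk6 and Cdkn2c stay below 1.

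Among the D cyclins, Ccnd1 fell in both exposures that ended at E10.25, and Ccnd2 and Ccnd3 did not pass the test in either. Ccnd1 (GRCm38 chr7:144929931-144939925, minus strand) had 1235, 1205 and 1217 CPM in the con libraries of litters 1 to 3 at E9.75+12h, against 744, 768 and 911 CPM in R2b. The 2 groups did not overlap, and R2b was lower within each of the 3 litters. The log2 fold change was -0.57 (SE 0.10), or 67.4% of con, with an adjusted p of 0.00423 in edgeR's quasi-likelihood test over 14882 genes. At E9.25+24h Ccnd1 had 1211, 1254, 1285 and 1098 CPM in con and 814, 812, 856 and 839 CPM in R2b. Again every R2b library lay below every con library. The log2 fold change was -0.54 (SE 0.06), or 68.7% of con, with an adjusted p of 0.00119. In pooled tissue, fewer cells that express a gene and less of its RNA per cell cannot be told apart.

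The call at E9.75+12h was lost without litter 1. It held in edgeR without the con or the R2b library of that litter alone (adjusted p 0.0214 and 0.0263). Without the whole litter the log2 fold change of Ccnd1 was -0.51 (SE 0.145) and the adjusted p 0.0964, or 0.148 with litter as a block. With the block and without litter 1, 267 genes passed over all genes tested, against 2973 in the main fit. At E9.25+24h the call held in every alternative, with adjusted p of at most 0.0302. Ccnd1 shares 1100 exon bases with LTO1 on the other strand, and the strand setting of the counting is not given in the sources used here. LTO1 itself differed by 0.18 (SE 0.12) at E9.75+12h and 0.19 (SE 0.07) at E9.25+24h on the log2 scale, which did not pass the test.

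**Figure D2:**
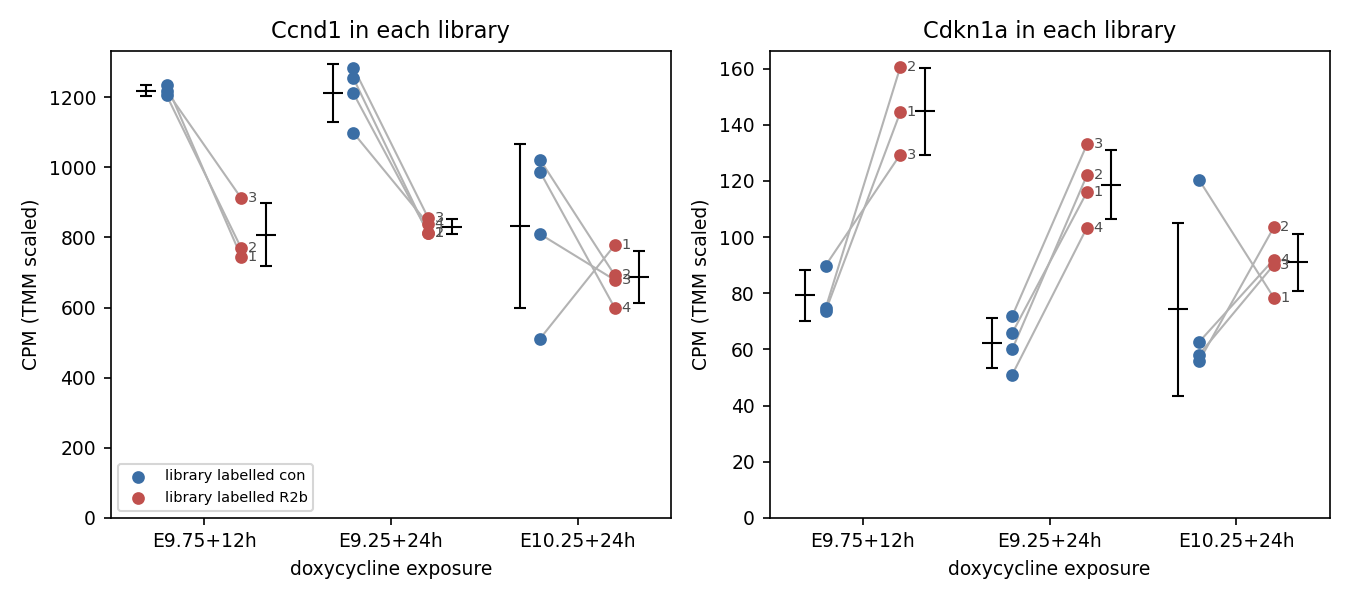
CPM of Ccnd1 and Cdkn1a in each library (points), with grey lines joining the con and R2b pool of a litter, litter numbers beside the R2b points, and black bars for the mean ± SD of each group. Both genes separate con from R2b in the exposures ending at E10.25, while at E10.25+24h litter 1 runs opposite to litters 2, 3 and 4.

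Ccnd2, the D cyclin next in level, had 466.2, 438 and 500.1 CPM in con in E9.75+12h litters, where R2b had 387, 491 and 449 CPM. Its log2 fold change was -0.06 (SE 0.11), with a 95% confidence interval of -0.29 to 0.18. At E9.25+24h it ranged from 473 to 706 CPM in con and from 491 to 688 CPM in R2b, with a log2 fold change of 0.01 (SE 0.14) and an interval of -0.32 to 0.34. In both groups litter 4 was the high sample, so the spread lay between litters rather than between genotypes. With litter as a block in edgeR the log2 fold change was 0.01 (SE 0.03, adjusted p 0.771). Both pools of litter 4 also held more of the mesenchyme markers (summed 1335 and 1217 CPM in con and R2b, against 79.5 to 388 CPM in the other litters), blood markers (1627 and 631 CPM, against 9.74 to 249 CPM) and endothelium markers (312 and 145 CPM, against 16.0 to 54.2 CPM). Their part in the Ccnd2 values was not tested. Ccnd3 differed by 0.15 (SE 0.12) and 0.10 (SE 0.11) on the log2 scale, with intervals of -0.12 to 0.42 and -0.16 to 0.35. With the block in edgeR its value at E9.25+24h was 0.10 (SE 0.04, adjusted p 0.0542). Bysl, which shares 361 exon bases with Ccnd3 on the other strand, fell by 0.48 (SE 0.14) at E9.75+12h with an adjusted p of 0.0377.

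The make-up of the D cyclin pool shifted with Ccnd1. At E9.75+12h the summed level per kb of the 3 genes was 317 ± 6.21 in con, against 228 ± 21.4 CPM per kb in R2b (SD, n = 3). It was 327 ± 5.45 and 247 ± 13.0 CPM per kb at E9.25+24h (SD, n = 4). The share of Ccnd1 was 75.1% ± 2.19 in R2b of E9.75+12h, while for E9.25+24h it was 71.4% ± 3.08, below the con shares given above. Ccnd2 took 15.7% of the pool in con and 20.7% in R2b at E9.75+12h, and 17.8% and 23.5% at E9.25+24h. These shares follow from the levels and were not tested on their own.

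Neither kinase passed the test in any exposure. Cdk4 (GRCm38 chr10:127063534-127067920) had 963, 989 and 1019 CPM in con at E9.75+12h, and R2b had 927, 917 and 931 CPM. The groups did not overlap, yet the difference did not pass the test: the log2 fold change was -0.08 (SE 0.09), with an adjusted p of 0.579. At E9.25+24h Cdk4 ranged from 1039 to 1185 CPM in con and from 965 to 1082 CPM in R2b, with a log2 fold change of -0.09 (SE 0.06) and an interval of -0.22 to 0.04. It was lower in R2b in each litter of both exposures. With litter as a block in edgeR its log2 fold change at E9.25+24h was -0.09 (SE 0.03, adjusted p 0.0513). Tspan31 shares 641 exon bases with Cdk4 on the other strand and differed by 0.06 (SE 0.11) and 0.16 (SE 0.06), without passing the test.

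Cdk6 was nearly absent beside Cdk4, with 138 to 222 counts per library at E9.25+24h. At E9.75+12h it had 8.89, 8.71 and 8.99 CPM in con and 7.09, 6.91 and 8.55 CPM in R2b, again without overlap. The log2 fold change was -0.22 (SE 0.17), with an interval of -0.59 to 0.16. At E9.25+24h it was -0.13 (SE 0.14), with an interval of -0.44 to 0.18.

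Cdkn1a was the gene of the set that changed most in both exposures ending at E10.25. At E9.75+12h it had 73.6, 74.6 and 89.9 CPM in con and 144, 161 and 129 CPM in R2b. Every R2b library lay above every con library. The log2 fold change was 0.89 (SE 0.11), a 1.86-fold rise, with an adjusted p of 0.000853. At E9.25+24h Cdkn1a had 65.9, 60.1, 71.9 and 51.0 CPM in con and 116, 122, 133 and 103 CPM in R2b, and the groups were again apart. The log2 fold change was 0.94 (SE 0.11), a 1.91-fold rise, with an adjusted p of 0.00201. Of all genes tested, 7.3% had a larger absolute change in the first exposure and 4.61% in the second. The call held in every alternative of these exposures, with adjusted p of at most 0.0468 and 0.0339.

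Tests of marker genes ran beside these. Markers of otic neuroblasts, the neuron precursors that leave the epithelium, moved with the result at E9.75+12h. Of 11 tested, 7 rose, among them Neurog1 by 0.78 (SE 0.11) on the log2 scale, and their summed level was 343 to 396 CPM in con and 533 to 589 CPM in R2b. At E9.25+24h, where Cdkn1a rose by 0.94, none of the 11 passed the test. Of these, 9 had a negative log2 fold change, and the median of the 11 was -0.37. The sums there were 245 to 532 CPM in con and 262 to 286 CPM in R2b. Blood markers summed to 21.5 to 793 CPM in con and 93.6 to 119 CPM in R2b at E9.75+12h. None of the 7 tested passed there, although all 7 values were negative, with a median log2 fold change of -1.54. Of other markers there, 0 of 11 for mesenchyme passed, 1 of 10 for endothelium was lower and 1 of 5 for hindbrain was higher. Of the 12 otic epithelium markers 4 were higher and 1 lower at E9.75+12h, and 2 were higher and 2 lower at E9.25+24h. Their sum was higher in R2b in each of the 7 litters of these exposures, from 4137 to 4361 CPM in con and 4329 to 5232 CPM in R2b at the first, and 2493 to 3821 CPM and 3390 to 5230 CPM at the second. At E9.25+24h none of 7 blood, 11 endothelium, 11 mesenchyme and 5 hindbrain markers passed, although all blood and endothelium values were negative, with medians of -0.96 and -0.83. At E10.25+24h no marker passed in all 8 libraries. All 8 blood markers tested were positive, with a median of 1.89. Their sum was 4853 CPM in litter 3 labelled R2b and 253 to 691 CPM in the others labelled R2b. Of 11 neuroblast markers 1 was negative, with a median of 0.60, and litter 4 labelled R2b held the most, 651 CPM. The other medians were 0.03 for otic epithelium, 0.08 for mesenchyme, -0.14 for endothelium and -0.05 for hindbrain. The part of these cells in the results was not tested.

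Cdkn1a lies on GRCm38 chr17:29090976-29100727, plus strand, and RefSeq gives it a pair of transcription starts. The stretch before the upstream start is shown because Cdkn1a is the member with the largest change and because p53 response elements are known upstream of this gene. It is chr17:29090729-29090975, plus strand, from the RefSeq promoter table for GRCm38.p6. RefSeq puts this start at base 29090979, and the 3 bases just before it, which lie in an annotated exon, are not printed. Capitals mark a TATAA match on the other strand, and a pair of CATG cores with 6 bases between, the core spacing of a p53 response element:
Cdkn1a upstream start: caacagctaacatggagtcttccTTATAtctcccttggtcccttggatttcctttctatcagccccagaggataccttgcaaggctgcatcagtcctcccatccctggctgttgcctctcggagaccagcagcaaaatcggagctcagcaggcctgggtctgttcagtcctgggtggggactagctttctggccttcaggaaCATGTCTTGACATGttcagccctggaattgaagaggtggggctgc

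The paired core (CATG, any 6 bases, CATG, which reads alike on both strands) lies 48 to 35 bases before that RefSeq start, and 0.49% of 32851 RefSeq windows of 250 bases before a start hold such a pair. It was chosen with the Cdkn1a sequence in view. The downstream start of Cdkn1a has a TATAA match from 25 to 21 bases before it and 2 GC boxes (GGGCGG). Matches to TATAA occur in 22.8% of all windows and GC boxes in 32.7%. Windows were found for 7 of the 10 genes. Cdk4 has 4 E-boxes (CACGTG), a motif that 6.02% of windows hold, and no window of the 7 genes holds TTTCCCGC or TTTGGCGC, the E2F motifs searched, or the CRE motif TGACGTCA. These are letter matches and not measured binding.

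The other Cip/Kip inhibitors did not pass the main edgeR test in any exposure. Cdkn1b had 127, 117 and 125 CPM in con at E9.75+12h and R2b had 107, 134 and 117 CPM, with a log2 fold change of -0.02 (SE 0.10). At E9.25+24h it ranged from 70.1 to 78.9 CPM in con and from 72.9 to 83.9 CPM in R2b, with a log2 fold change of 0.10 (SE 0.06). Cdkn1c, the most abundant inhibitor, had 503, 550 and 547 CPM in con at E9.75+12h, R2b had 613, 616 and 475 CPM, and the groups overlapped. At E9.25+24h it had 344, 326, 347 and 359 CPM in con and 358, 361, 412 and 390 CPM in R2b, higher in R2b in each of the 4 litters. Its log2 fold change there was 0.15 (SE 0.05) with an adjusted p of 0.0865. With litter as a block the adjusted p was 0.00806, and with DESeq2 it was 0.0400, so Cdkn1c passed in those fits. With the block and without litter 3 it did not.

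With the rise of Cdkn1a, its share of the Cip/Kip level per kb at E9.75+12h was 7.18% ± 0.637 in con against 11.8% ± 0.611 in R2b (SD, n = 3). At E9.25+24h it was 8.66% ± 1.2 and 14.1% ± 1.24 (SD, n = 4). Cdkn1c still made up 80.5% and 78.6% of the family in R2b. The summed level of the 3 inhibitors was 202 ± 6.92 CPM per kb in con and 237 ± 13.4 CPM per kb in R2b at E9.25+24h, without overlap. At E9.75+12h it was 311 ± 13.7 and 346 ± 44.0 CPM per kb, and the groups overlapped. At E10.25+24h it was 182 ± 11.5 labelled con and 185 ± 14.0 CPM per kb labelled R2b, again with overlap.

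The INK4 inhibitors were low. Cdkn2d had 10.4, 11.2 and 11.1 CPM in con at E9.75+12h and R2b had 9.57, 8.96 and 10.9 CPM, with a log2 fold change of -0.13 (SE 0.16). At E9.25+24h it ranged from 14.3 to 18.9 CPM in con and from 15.4 to 18.01 CPM in R2b, with a log2 fold change of 0.10 (SE 0.10). Cdkn2c had only 10 to 63 counts per library over the 3 exposures. Its log2 fold change was 0.43 (SE 0.38) at E9.75+12h and -0.44 (SE 0.39) at E9.25+24h, with intervals of -0.41 to 1.27 and -1.33 to 0.45. At this depth a change of Cdkn2c within these limits was not detectable.

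Counted together, 2 of the 10 genes passed the test at E9.75+12h, Cdkn1a higher and Ccnd1 lower. Of all 14882 genes tested, 20% passed, 1518 higher and 1455 lower, so the share of the 10 genes equalled the background. At E9.25+24h the same 2 genes passed, beside 15.6% of 14979 genes, 1362 higher and 973 lower. With litter as a block 3 of the 10 passed, beside 40.6% of all genes. Groups did not overlap for 4 of the 10 genes at E9.75+12h (Ccnd1, Cdk4, Cdk6 and Cdkn1a) and for 2 at E9.25+24h. For all genes the figures were 38% and 21.7%. The median log2 fold change of the 10 genes was -0.04 in the first exposure and 0.05 in the second, against 0.01 and -0.01 over all genes tested.

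**Figure D3:**
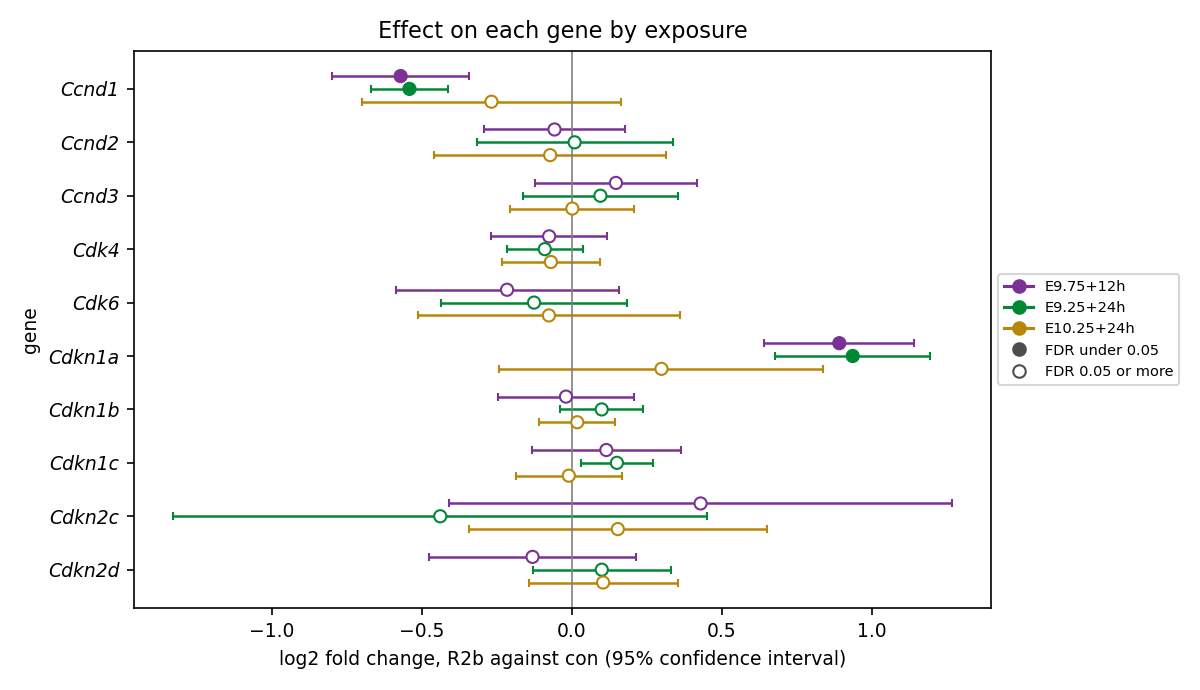
Log2 fold change of R2b against con for each gene and exposure, with 95% confidence intervals from edgeR's quasi-likelihood fit, filled where the adjusted p was under 0.05. Ccnd1 (-0.57 and -0.54) and Cdkn1a (0.89 and 0.94) are filled in both exposures that end at E10.25, and no gene is filled at E10.25+24h.

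At E10.25+24h none of the 10 genes passed the test in all 8 libraries, and none had an unadjusted p under 0.05. Of 15203 genes 0% passed in edgeR, where 175 had an unadjusted p under 0.05, and none passed in DESeq2, where 162 did. In the order of litters 1 to 4, Ccnd1 was at 512, 1021, 809 and 987 CPM in pools labelled con, and at 779, 692, 678 and 598 CPM in pools labelled R2b. Litter 1 had its lower value in the library labelled con, and the other litters in the library labelled R2b. Cdkn1a had 120, 55.8, 58.1 and 62.6 CPM labelled con and 78.5, 103, 90.1 and 92.0 CPM labelled R2b. Here too litter 1 ran opposite to the other litters, as its transgene reads did. The log2 fold changes over all 8 libraries were -0.27 (SE 0.19) for Ccnd1 and 0.30 (SE 0.24) for Cdkn1a, both with an adjusted p of 0.9999.

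Without litter 1 the log2 fold change was -0.50 (SE 0.10, adjusted p 0.105) for Ccnd1 and 0.71 (SE 0.07, adjusted p 0.0659) for Cdkn1a. With litter as a block as well, both passed, with adjusted p of 0.0380 and 0.0198, beside 4.04% of 15195 genes. The fit without litters 1 and 3 and with the block held litters 2 and 4 alone. Its values were -0.62 (adjusted p 0.0132) and 0.74 (adjusted p 0.0170), beside 5.77% of 15200 genes. These p-values rest on few libraries and are weak evidence of a replicated effect. Without litter 1, or without litters 1 and 3, no gene of the 10 passed when the block was left out. The other 8 genes passed in none of these fits, and their log2 fold changes over all 8 libraries ranged from -0.08 for Cdk6 to 0.15 for Cdkn2c. No gene of the 10 had groups without overlap, against 1.04% of all genes.

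Within litters, Ccnd1 was lower in R2b in 10 of 11 and Cdkn1a higher in 10 of 11, and the exception of both was litter 1 of E10.25+24h. Differences within a litter ran from -0.73 to 0.61 for Ccnd1 and from -0.62 to 1.10 for Cdkn1a, as log2 CPM. Cdk4 was also lower in R2b in 10 of 11 litters, but by 0.25 at most. Over the 22 libraries, each taken as its deviation from the mean of its exposure, Ccnd1 and Cdkn1a had a Pearson r of -0.90, given as a description since genotype and litter enter both.

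**Figure D4:**
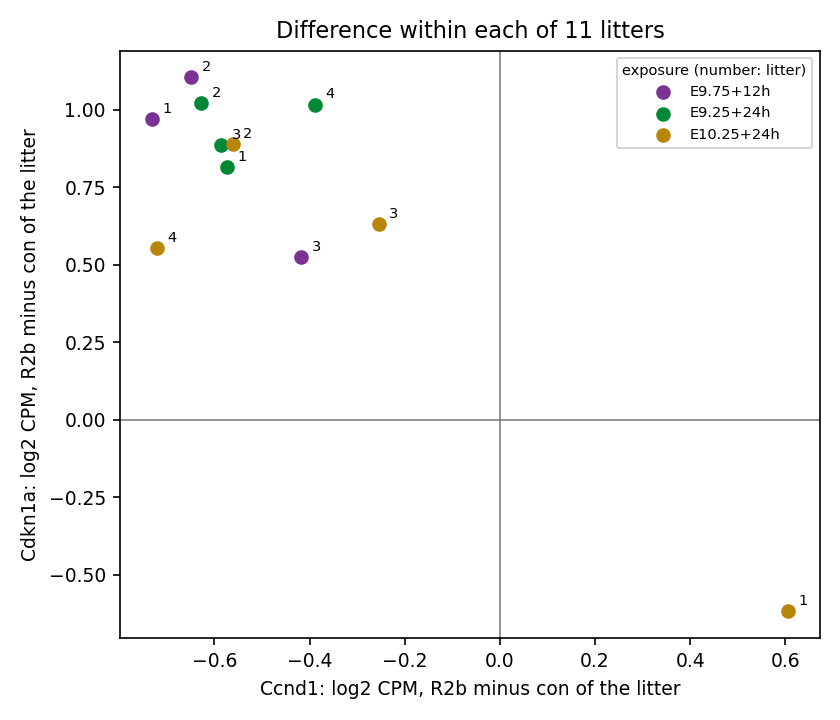
Difference within each of the 11 litters (log2 CPM, R2b minus con) of Ccnd1 on the horizontal axis and Cdkn1a on the vertical axis, coloured by exposure and numbered by litter. Of 11 litters, 10 lie at upper left, with Ccnd1 lower and Cdkn1a higher in R2b, and litter 1 of E10.25+24h lies alone at lower right, at 0.61 and -0.62.

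The effects of different exposures were set against each other in a fit of all 22 libraries, in which both comparisons share the E9.25+24h libraries. Of the exposures ending at E10.25, the longer was first compared with the shorter, and none of the 10 genes and 0% of 15688 genes passed in edgeR. None of the 10 had an unadjusted p under 0.05 there. For Ccnd1 the difference was 0.05 (95% confidence interval -0.40 to 0.49) and for Cdkn1a 0.06 (-0.52 to 0.64). The late 24-hour exposure was then compared with the early one, and again 0% of 15688 genes passed in edgeR. Over all genes, 1908 and 1344 had an unadjusted p under 0.05 in these comparisons, and DESeq2 called 99 and 73. The first count was 1062 without litter 2 of E9.75+12h, or 1900 with the block as well, while none of the 10 genes passed in any of these fits. The Cdkn1a effect was lower at E10.25+24h by 0.64 (SE 0.26), with an unadjusted p of 0.0225 and an adjusted p of 0.495. The Ccnd1 effect was higher, that is less negative, by 0.27 (SE 0.20, adjusted p 0.794). Both values depended on litter 1 of E10.25+24h: without it they were -0.24 for Cdkn1a and 0.03 for Ccnd1. Without litters 1 and 3 they were -0.21 (SE 0.19) for Cdkn1a and -0.09 (SE 0.12) for Ccnd1, both with an adjusted p of 0.99996. These intervals are wide, so similar effects are not shown by them.

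Lists of other cell cycle genes were read against the share of all genes that passed in either direction, 20% in the first exposure and 15.6% in the second. At E9.75+12h 8 of 13 pocket protein and E2F genes were lower and none higher, with a median log2 fold change of -0.38. Among them were Tfdp1, the E2F partner (-0.50, SE 0.10), Rbl1, which encodes the pocket protein p107 (-0.54, SE 0.12), and the repressor E2f7 (-0.57, SE 0.13). Of 8 genes for cyclin E, cyclin A and their kinase complexes, 5 were lower and none higher, with a median of -0.48, including Ccna2 (-0.92, SE 0.13), Ccne1 (-0.71, SE 0.11) and the phosphatase Cdc25a (-0.51, SE 0.10). Of 10 genes for the turnover of cyclins and p27, 3 were lower: Cks1b (-0.65, SE 0.10) and Skp2 (-0.58, SE 0.10), which mark p27 for breakdown, and the scaffold Cul1 (-0.32, SE 0.10). The turnover count lies near the background. Of 16 S phase genes 14 were lower, with a median of -0.65, among them the ribonucleotide reductase subunits Rrm1 (-0.78, SE 0.11) and Rrm2 (-0.84, SE 0.12) and the replication factor Cdc45 (-0.84, SE 0.12). All 16 G2 and M phase genes were lower, with a median of -0.998, such as the spindle checkpoint kinase Bub1 (-1.08, SE 0.10) and the kinetochore gene Cenpf (-1.16, SE 0.10). The counts of the first 4 lists depended on litter 1: without that litter the counts of the 5 lists, in this order, were 0, 2, 1, 6 and 14, and with litter as a block as well they were 0, 1, 0, 1 and 14. In that last fit 267 genes passed over all genes tested. Without the con or the R2b library of litter 1 alone the pocket protein and E2F count was 2, and without litter 3, or without the con library of litter 2, it was 5. With DESeq2, and without the R2b library of litter 2, 5 turnover genes were lower, and with all libraries in 1 fit 6 passed. Without that R2b library 4583 genes passed over all genes tested. The neuroblast markers given above rose in the same libraries, and their part in these counts was not tested.

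At E9.25+24h the lower genes were 2 of 13 in the pocket protein and E2F list (E2f8, a repressor, at -0.45, SE 0.11, and the activator E2f3 at -0.21, SE 0.06). They were 4 of 8 in the cyclin E and A list, 2 of 10 in the turnover list, 9 of 16 in the S phase list and 11 of 16 in the G2 and M phase list, with none higher in any. The medians were -0.17, -0.25, -0.11, -0.34 and -0.34. The counts of the pocket protein and E2F list and of the turnover list lie near the background. Rrm1 (-0.39, SE 0.05) and Cdc45 (-0.41, SE 0.08) were lower again, as were Mki67, the Ki-67 proliferation marker (-0.39, SE 0.07), and Cenpf (-0.34, SE 0.06). Skp2 and Cks1b were again the lower genes of the turnover list, at -0.32 (SE 0.05) and -0.29 (SE 0.08). With litter as a block the counts passing were 9, 5, 6, 16 and 16, beside 40.6% of all genes. Of these, 1 of the turnover genes was higher and all others lower. Without the block and without litter 1 the counts were 0, 0, 0, 1 and 0, where 322 genes passed over all genes tested. Without the block and without litter 2 they were 0, 0, 1, 1 and 2. Without litter 3 they were 1, 0, 1, 2 and 6, and without litter 4 they were 1, 4, 1, 4 and 10. Leaving out a single library gave 0 to 3, 0 to 4, 1 to 2, 2 to 10 and 4 to 12, and DESeq2 gave 5 in the pocket protein and E2F list. All libraries in 1 fit gave 1, 3, 1, 6 and 9, and no filter on low counts gave 2, 4, 1, 8 and 9.

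At E10.25+24h no gene of the 5 lists passed in all 8 libraries, and none had an unadjusted p under 0.05 in edgeR (1 did in DESeq2), although every S phase and G2 and M phase gene had a negative log2 fold change, with medians of -0.16 and -0.14. The fit with litter as a block and without litters 1 and 3 held litters 2 and 4 alone. In it 11 of 16 S phase and 12 of 16 G2 and M phase genes were lower, beside 5.77% of all genes. These were the highest counts of 23 alternatives, of which 21 gave 0 for each of these lists. Leaving out a single litter or library, with or without the block, gave at most 5 and 7. The lists were chosen with earlier results of these data known, so their direction is no independent evidence. In the turnover list, the fall of Skp2 and Cks1b stood beside Cdkn1b RNA that did not pass the test in any exposure. The level of p27 protein was not measured.

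**Figure D5:**
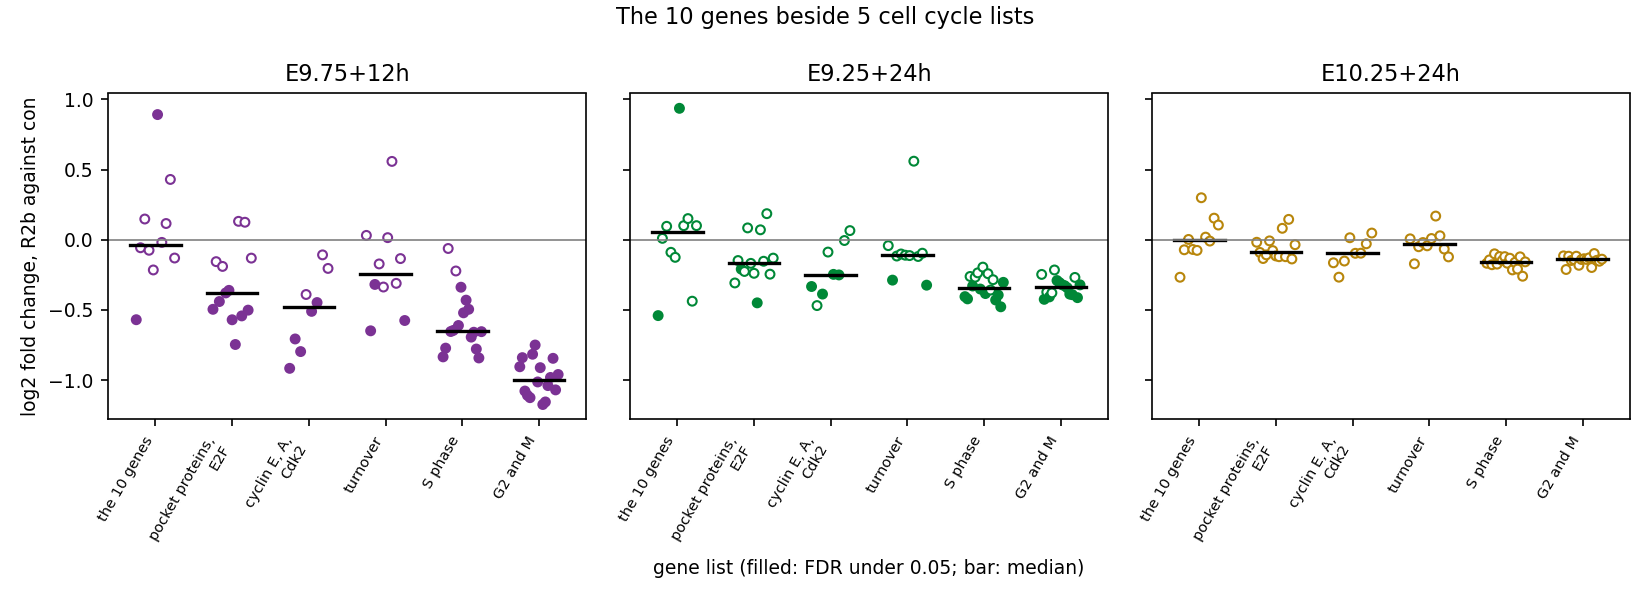
Log2 fold change of R2b against con for the 10 genes and for each gene of 5 cell cycle lists, by exposure, each point 1 gene, filled where the adjusted p was under 0.05, with black bars at list medians. The list medians at E9.75+12h run down to -0.998 for G2 and M phase genes, while the 10 genes have a median of -0.04 with Cdkn1a and Ccnd1 at opposite ends.

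The genes whose levels ran most like each member were sought over the 22 libraries, each taken as its deviation from the mean of its exposure, among 12807 genes with a mean log2 CPM of at least 1. Ccnd1 was most like Prdm1 (r = 0.95), Cdc14b (0.95) and Ppfibp1 (0.94). Cdkn1a was most like Irx6 (0.96), Sdc2 (0.95) and S100a1 (0.95). Cdk4 was most like Pithd1 (0.94), Sec13 (0.93) and Ppp1ca (0.93). For Ccnd2 the nearest were Igf2os, Bag3 and Gsto1 (each 0.86), and for Ccnd3 Erf (0.90), Tns2 and Dusp7 (each 0.87). Cdk6 (Kcnip3 at 0.82, Fez2 and Gm14276), Cdkn1b (Pgrmc1 at 0.83, Rnft1 and Eid1) and Cdkn1c (Tmed9 at 0.82, Zfyve21 and Chmp4b) had looser neighbours. Cdkn2d had none above 0.66 (Ccn1, then Actg1 and Cep120), and Cdkn2c was under the level minimum.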

How the data were processed

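The authors deposited 1 table of unnormalized counts, whole numbers for 15736 Ensembl genes. The submitters' processing notes name Novoalign 2.08.03 and mm10, and the labels describe stranded poly(A) libraries. The counting tool, annotation and strand setting are not given in the sources used here. Symbols, positions and merged exon lengths came from GENCODE M21. Of 24 samples 22 had a column, and 2 columns matched no sample and were not used. Groups came from the labelled genotype and exposure. Each exposure was fitted alone in edgeR 4.0.16 under R 4.3.3 (filterByExpr, TMM, glmQLFit, glmQLFTest; fold changes with a prior count of 0.125), with Benjamini-Hochberg adjustment over all genes tested and a threshold of 0.05. Differences of effects were contrasts of 6 group means in all 22 libraries. DESeq2 1.42.0, other size factors, no filter, litter as a block and leaving out litters or libraries were alternatives. The code was tested on simulated data.

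A con and an R2b pool of 1 litter come from 1 pregnant female, per the labels. Same-litter libraries deviated together at E9.25+24h (r 0.52 to 0.83), but not at E9.75+12h (-0.31 to -0.17), and mixed at E10.25+24h (-0.17 to 0.44). A con and an R2b library of different litters had r of -0.59 to 0.31, -0.13 to 0.34 and -0.43 to 0.35 in these exposures. At E9.75+12h every same-litter pair thus lay below every different-litter pair, so these values give the labelled pairing no support there. No 2 libraries of a group were duplicates (chi-square per degree of freedom 5.48 or more). SDs, and the SEs and p-values of fits without the block, measure the spread between litters. Those fits take the con and R2b pools of a litter as independent. With litter as a block, SEs and p-values measure the spread that remains once litter differences are removed. Counts carry no molecular identifiers.

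The members and lists were chosen with earlier results of these data known. Named genes are all 10 members, up to 3 passing genes of each other list per exposure, smallest adjusted p first, and the 3 genes most alike to each member by Pearson r of log2 CPM (prior count 2). LTO1, Bysl and Tspan31 were named for their position, after their values were seen. Promoter windows are from RefSeq.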

Additional observations from a re-analysis of the deposited data

Results flagged for a closer look

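In 4 of 40 groups of 4 libraries, the highest or lowest library stood apart from the other 3 by Dixon's test at the 95% level, which chance gives in about 1 in 20 groups. Ccnd2 was high in litter 4 of E9.25+24h, both in con (706 CPM) and in R2b (688 CPM), the litter whose pools held most mesenchyme, blood and endothelium markers of that exposure. Ccnd3 was low in litter 4 of E10.25+24h in the library labelled R2b (117 CPM). Cdkn1a was high in litter 1 of E10.25+24h in the library labelled con (120 CPM), the library of that group with the most Ighg1 counts, 15754.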

How the results depend on the processing

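The 30 log2 fold changes of the 10 genes were recomputed under 610 alternatives in all, of which 552 kept their direction and their side of the threshold, 10 newly passed, 2 no longer passed and 46 changed direction; all that changed direction belong to values that did not pass the test. The 2 lost were Ccnd1 at E9.75+12h without litter 1, with and without the litter block. Over the fits that left out a library or a litter, the number of the 10 genes passing ranged from 1 to 2 at E9.75+12h, from 2 to 4 at E9.25+24h and, in the latest exposure, from 0 to 2. The 1 at E9.75+12h came without litter 1, where 267 of all genes passed with the block. The 4 came with the block and without litter 4, where 6161 of all genes passed. The 2 in the latest exposure came with the block and without litter 1, beside 4.04% of all genes. With litter as a replicate block in all libraries the number of the 10 genes passing was 2, 3 and 0, the 3 beside 40.6% of all genes. In the latest exposure, with the block and without litters 1 and 3, it was 2, beside 5.77% of all genes. Apart from Cdkn1c at E9.25+24h the block in all libraries changed no call of the 10 genes. Cdkn1c at E9.25+24h was also called by DESeq2, and Ccnd3 at E9.25+24h only with the block and without litter 4. Of all genes, 2973 passed at E9.75+12h and 1775 with the block, 2335 and 6086 at E9.25+24h; over all alternatives their number ranged from 267 to 4583, from 322 to 6161 and, at E10.25+24h, from 0 to 877. Of the differences of effects, 54 of 417 alternative values changed direction and none passed; DESeq2 gave no adjusted p for 3 more, which are left out. Over all genes, 0 to 1900 differed between the exposures ending at E10.25 and 0 to 73 between the 24-hour exposures.

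Ccnd3 at E10.25+24h was 0.00 in the reported fit and -0.0058 with no filter, -0.00074 with the block and -0.0063 with all libraries in 1 fit. Over the left-out libraries and litters, log2 fold changes ranged from -0.197 to 0.030 for Ccnd2 and -0.158 to 0.075 for Cdkn1b at E9.75+12h, and from -0.116 to 0.149 for Ccnd2 at E9.25+24h. For the latest exposure the ranges were -0.273 to 0.050 for Ccnd2, -0.059 to 0.079 for Ccnd3, -0.317 to 0.047 for Cdk6, -0.0086 to 0.070 for Cdkn1b and -0.058 to 0.056 for Cdkn1c. The effect at E9.25+24h minus that at E9.75+12h ranged from -0.059 to 0.111 for Ccnd1, -0.038 to 0.219 for Ccnd2, -0.194 to 0.022 for Ccnd3, -0.048 to 0.0078 for Cdk4, -0.013 to 0.181 for Cdk6, -0.146 to 0.187 for Cdkn1a, -2.2e-05 to 0.266 for Cdkn1b and -0.117 to 0.122 for Cdkn1c, and for Cdk4 it was -0.023 with median-of-ratios size factors and with DESeq2. The effect at E10.25+24h minus that at E9.25+24h ranged from -0.299 to 0.041 for Ccnd2, -0.041 to 0.075 for Cdk4, -0.20 to 0.175 for Cdk6 and -0.079 to 0.097 for Cdkn2d. Without litters 1 and 3 of E10.25+24h it was -0.092 for Ccnd1 (0.27 in all libraries), -0.087 for Cdk4, -0.173 for Cdk6 and -0.019 for Cdkn2d, and with the block as well -0.098, -0.092, -0.172 and -0.016. The cause of these changes was not tested.

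Cdkn2c and Cdk6 had the lowest counts of the 10 genes, with as few as 10 and 121 per library. At E9.25+24h the SE of the log2 fold change was 0.14 for both Cdk6 and the far more abundant Ccnd2.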
